A study of Mus musculus with 20 samples.

Results

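The contrast described here is 24 h against 2 h of exposure to human amylin in cells grown at 22.7 mM glucose. Its members are the 6 arrays labelled 22.7 mM glucose with 1, 10 or 20 µM amylin for 2 h (3 arrays) or for 24 h (3 arrays), out of 20 arrays in all. The cells were MIN6, a line derived from a mouse insulinoma that keeps much of the insulin program of pancreatic beta cells. The whole set holds, at each of 22.7 and 5.5 mM glucose, 1 untreated array and 9 arrays that combine the 3 doses with 2, 12 or 24 h. Each condition was arrayed 1 time, and nothing in the labels says how many cultures stand behind an array. The 3 doses therefore took the place of replicates: each 24 h array was set against the 2 h array of the same dose, and the reported value is the mean of the 3 differences. The p-values measure the spread of such differences between these arrays and not between repeated cultures. The untreated array carries no time, so that hours of amylin and hours in culture cannot be told apart.

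Amylin, also called islet amyloid polypeptide, is a peptide that beta cells store and release together with insulin. The human form, unlike the mouse form, assembles into oligomers and amyloid fibrils, and is known to be toxic to cultured beta cells. Cells commonly answer a new stimulus with immediate early genes, such as Fos and Egr1, which are switched on within minutes and fall again within hours. Slower programs include the heat shock response, which makes cytosolic chaperones, and the integrated stress response, in which the factor ATF4 and its targets Ddit3 (CHOP) and Trib3 rise when translation is restrained. The 6 arrays were chosen by their labels of glucose, dose and time, and the contrast was proposed with earlier results of these data known.

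The arrays labelled 1 µM and 2 h stood apart from the other arrays of their glucose label at both levels. On the other 18 arrays, 37 genes separated 22.7 from 5.5 mM without overlap (18 higher at 22.7 mM and 19 higher at 5.5 mM). The array labelled 22.7 mM, 1 µM and 2 h was nearer to the 22.7 mM mean in 17 of these 37 genes, and so was split between the levels. That labelled 5.5 mM, 1 µM and 2 h was nearer to the 22.7 mM mean in 29. Among the 16 genes separated by more than 0.5, the counts were 6 and 13. Txnip and Nupr1, given next, had the widest separation of the 37. For Txnip, a glucose-induced inhibitor of thioredoxin, the other 9 arrays averaged 8.76 at 22.7 mM and 7.53 at 5.5 mM, whereas the arrays labelled 1 µM and 2 h read 7.34 and 8.76. For Nupr1, a stress-induced nuclear protein, the averages were 7.46 and 8.49 and these arrays read 9.00 and 7.40. Why they stand so was not tested. The labels were kept, and results are given with and without these arrays.

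On the log2 scale of the deposited values, 7436 genes were compared, after the 40% of genes with the lowest mean level had been left out. Of these, 31 genes (0.417%) differed between 24 and 2 h at an adjusted p under 0.05 (limma, Benjamini-Hochberg): 20 (0.269%) were higher and 11 (0.148%) were lower at 24 h. All 31 had the same sign in the 3 dose pairs. In RNA from whole cultures, fewer cells of a kind and less RNA per cell cannot be told apart. The genes that fell were led by the immediate early factors Egr1 and Fos and included the helix-loop-helix inhibitors Id2 and Id3, the repressor Crem, the RNA-binding protein Cirbp and the linker histone H1f2. The genes that rose were led by the glycosyltransferase Ogt and the Hsp90 partner Chordc1. Differences ran from -0.53 to -1.36 for the genes that fell and from 0.49 to 0.86 for those that rose. The 2 h and 24 h values did not overlap for 11 of the 11 and 19 of the 20, against 7.02% and 10.9% of all genes tested. At an unadjusted p under 0.05, 1019 genes (13.7%) differed. Of all 7436 genes, 4031 had a positive difference and 3405 a negative one.

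These calls sat close to the threshold, with adjusted p from 0.020 to 0.048, and 1 array could undo them. With the 2 treated arrays that have no scanner description added, 0 genes were called, and with the probe sets of each gene averaged 1 was. Without any single array of 10 or 20 µM among the 6, 0 genes were called, whereas without either array of 1 µM the pair fell away and 36 were called (32 higher, 4 lower). The 4 lower were then Cirbp, Crem, Id3 and H1f2, and neither Fos nor Egr1 (-1.15, adjusted p = 0.17) was called. Without both arrays labelled 1 µM and 2 h (22.7 and 5.5 mM), 41 were called (33 higher, 8 lower), 13 of them among the 31. Fos (-1.20, adjusted p = 0.0063), Egr1 (-1.15, adjusted p = 0.033), Cirbp, Crem, Id3 and H1f2 were among these 13, as were Ogt, Arid4b and Mns1, whereas Id2, Nab2, Chordc1, Dnaja1 and Parp1 were not. Arrays outside the contrast enter its error: without either array of 22.7 mM and 12 h, 7 genes were called, and without the 5.5 mM array of 20 µM at 2 or 24 h, 15 and 16. All 31 kept their sign under each alternative in which they could be fitted.

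The 6 arrays were alike as a whole: their values over 12393 genes, each by its probe set of highest mean, correlated with each other between 0.990 and 0.996. The actin 3′ minus 5′ signal, which grows as RNA loses its 5′ part, was 1.90, 2.60 and 1.61 at 2 h (1, 10 and 20 µM) and 1.96, 1.19 and 1.36 at 24 h. It was thus lower at 24 h for 10 and 20 µM and nearly equal for 1 µM, and with it as a covariate 1 gene was called. Both 1 µM arrays were scanned on day 3, as was the array of 10 µM and 2 h, whereas the array of 20 µM and 2 h was scanned on day 2 and the 24 h arrays of 10 and 20 µM on day 4. With scan day as a block, 14 genes were called, 1 of them higher and 13 lower. Only 4 of the 31 were among these, and all 4 were genes that fell. The 1 µM pair is the one scanned within 1 day, and its difference was -1.05 for Fos, -1.78 for Egr1 and 0.72 for Ogt. These genes were called on a mean that includes this pair, whose 2 h array was split between the glucose levels, so the values are a description. The beta cell markers were present: 12 of 14 were measured and all 12 passed the filter, with a mean level of 11.54 to 11.67 at 2 h and 11.72 to 11.80 at 24 h. Of the markers of other cell types, 2 of 5 for other islet cells, 1 of 6 for acinar, 1 of 4 for duct, 3 of 11 for fibroblasts and 1 of 8 for immune and endothelial cells passed the filter. Among these, Gcg, which encodes glucagon, was at 10.90 to 11.40 in the 6 arrays, and the duct marker Krt7 at 10.57 to 10.94. Of the other islet hormones, Sst was at 6.9 to 7.5, and Ppy, Pyy and Ghrl did not pass the filter.

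Promoter sequences are shown for Fos and Id3, which fell and hold the motif TGACG, the half-site of the cAMP response element, for H1f2, which fell and holds a CCAAT box, and for Dnaja1, which rose and holds GAANNTTC, the paired unit of the heat shock element. Each is the 250 bases before a RefSeq start in GRCm38.p6, on the plus strand, with the motif in capitals on whichever strand it lies. Dnaja1 has 3 promoters, and the stretch shown was picked because it holds the motif. Fos is at chr12:85473640-85473889, Id3 at chr4:136143572-136143821, H1f2 at chr13:23738557-23738806 and Dnaja1 at chr4:40722218-40722467.
Fos: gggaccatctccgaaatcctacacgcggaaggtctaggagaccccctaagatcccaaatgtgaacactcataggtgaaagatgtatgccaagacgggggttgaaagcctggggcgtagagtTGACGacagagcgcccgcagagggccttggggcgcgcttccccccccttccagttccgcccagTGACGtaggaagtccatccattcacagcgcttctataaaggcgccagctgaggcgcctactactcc
Id3: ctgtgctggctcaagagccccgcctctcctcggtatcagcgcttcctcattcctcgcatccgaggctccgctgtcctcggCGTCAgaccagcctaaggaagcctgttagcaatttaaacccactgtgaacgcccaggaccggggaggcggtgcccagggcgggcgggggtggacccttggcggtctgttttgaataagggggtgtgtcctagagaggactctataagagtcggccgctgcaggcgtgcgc
H1f2: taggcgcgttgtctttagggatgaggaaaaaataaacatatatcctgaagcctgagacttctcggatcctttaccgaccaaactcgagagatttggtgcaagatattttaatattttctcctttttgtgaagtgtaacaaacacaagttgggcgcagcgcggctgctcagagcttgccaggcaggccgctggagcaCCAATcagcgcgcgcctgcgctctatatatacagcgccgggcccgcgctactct
Dnaja1: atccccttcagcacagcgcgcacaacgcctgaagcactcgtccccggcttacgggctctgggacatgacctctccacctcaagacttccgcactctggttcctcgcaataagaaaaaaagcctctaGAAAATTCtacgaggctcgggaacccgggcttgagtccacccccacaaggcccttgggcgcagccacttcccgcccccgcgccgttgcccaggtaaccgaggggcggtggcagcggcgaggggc
The Fos stretch holds TGACG at 2 places. RefSeq promoters were matched for 9 of the 11 genes that fell and 19 of the 20 that rose. On both strands, TGACG was found in at least 1 promoter of 5 of the 9 (Cirbp, Cxcl12, Fos, Foxc1 and Id3) and 7 of the 19, against 17.77% of all 32851 promoter stretches. Some genes have several promoters, which raises their chance of a match. The full site TGACGTCA, which contains TGACG, was found in 0 of the 9 and 0 of the 19 (1.55% of all). CCAAT was found in 4 of the 9 and 11 of the 19 (33.85% of all), GAANNTTC in 0 and 1 (6.69%), and TTCNNGAA, the same units in the other order, in 0 and 2 (7.17%). These matches describe letters in a window and carry no statement on binding.

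Fos and Egr1 fell most. Fos, a component of the AP-1 transcription factor, read 9.41, 9.86 and 9.66 at 2 h (1, 10 and 20 µM in this and every following list) and 8.36, 8.58 and 8.55 at 24 h. Egr1, a zinc finger factor induced by growth signals, read 11.46, 11.53 and 11.30 at 2 h and 9.68, 10.37 and 10.18 at 24 h. In both genes every 2 h array lay above every 24 h array, and the untreated array lay higher still, at 10.52 for Fos and 11.96 for Egr1. The difference was -1.15 ± 0.21 (SE, adjusted p = 0.036) for Fos, a 2.22-fold fall, and -1.36 ± 0.28 (adjusted p = 0.046) for Egr1, a 2.56-fold fall. Nab2, a co-repressor that binds EGR proteins and is itself an EGR1 target, fell too. Its values were 8.62, 8.14 and 7.96 at 2 h and 7.81, 7.48 and 7.62 at 24 h, a difference of -0.60 ± 0.11 (adjusted p = 0.042). Its untreated array, at 7.89, lay between the groups.

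Of the listed immediate early genes, 22 were tested: 2 fell (0.148% of all genes) and 0 rose (0.269%). A negative difference was found in 18 of the 22, and in 3405 of all 7436 genes. The array labelled 1 µM and 2 h held the highest of the 6 values in 9 of the 22, against 15.6% of all genes. The median difference was -0.19, against 0.02 for all genes tested. The groups did not overlap for 9 of the 22 in the lower direction, against 7.02% of all genes. At an unadjusted p under 0.05, 7 were lower and 0 higher, against 4.61% and 9.09% of all genes. Without both arrays labelled 1 µM and 2 h, a fit added after the data were seen, 4 of the 22 were called lower. When only the 2 h array of the 1 µM pair in this contrast was left out, 0 of the 22 were called. Fos (-1.20) then had an adjusted p of 0.057 and Egr1 (-1.15) one of 0.17. Nr4a1, a nuclear receptor of the early response, was 10.06, 9.90 and 9.81 at 2 h and 9.45, 9.31 and 9.15 at 24 h, a difference of -0.62 with an adjusted p of 0.067. Ier2 (-0.69, adjusted p = 0.084) and Maff (-0.54, adjusted p = 0.078), a small MAF factor, also missed the threshold with groups apart. In 9 of the 22 the untreated array lay above all 6 treated ones, which held for 17% of all genes. Across the doses, the list's median difference was -0.27 for 1 µM, -0.21 for 10 µM and -0.16 for 20 µM.

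**Figure D1:**
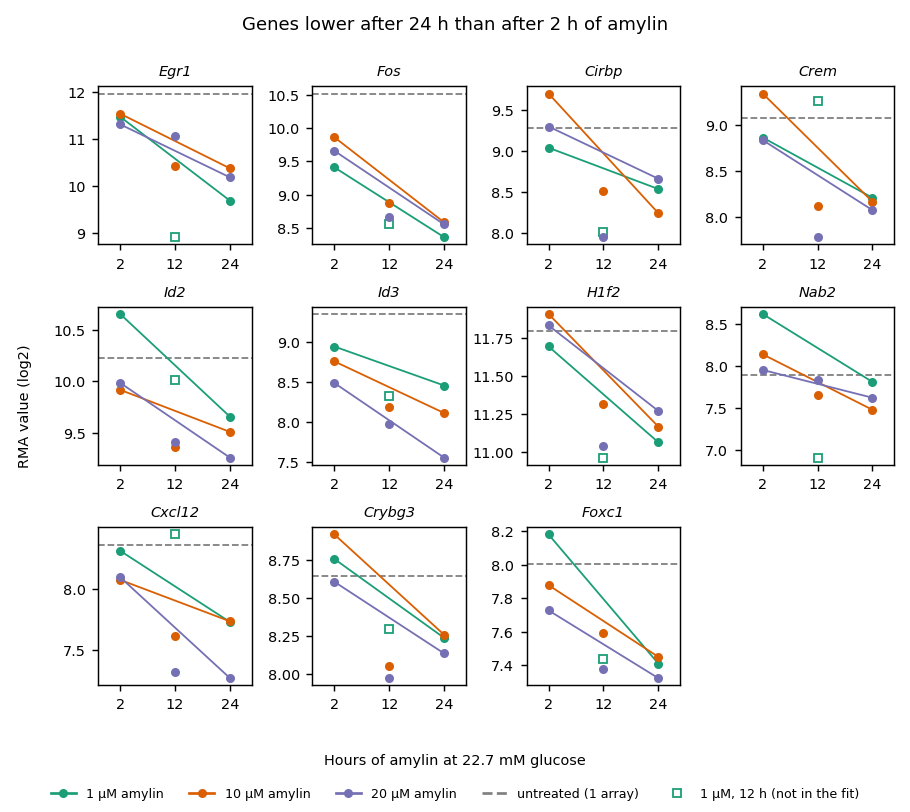
The 11 genes that fell, 1 panel each: RMA values (log2, y axis) at 2, 12 and 24 h of amylin at 22.7 mM glucose (x axis), coloured by dose, with lines joining the 2 h and 24 h arrays of a dose and a dashed line at the single untreated array. Every 2 h point lies above every 24 h point in each panel, and the y axes differ between panels and do not start at 0.

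Crem and Cirbp followed in size. Crem, a factor of the cAMP response whose inducible form represses that response, fell from 8.86, 9.34 and 8.84 to 8.21, 8.17 and 8.08, a difference of -0.86 ± 0.17 (adjusted p = 0.042). Its 24 h values lay within a narrow band, all below the untreated value of 9.07. Its 2 dimmer probe sets (mean levels 7.72 and 4.12) gave -0.12 and -0.18. Cirbp, which binds RNA and is induced by mild cold, fell from 9.04, 9.70 and 9.30 to 8.54, 8.24 and 8.66, by 0.87 ± 0.16 (adjusted p = 0.036). The drop was largest for 10 µM, where the 24 h array was the lowest of the 6.

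Id2 and Id3 fell. Id proteins bind other helix-loop-helix factors and keep them from DNA, and the genes are classic targets of BMP signalling. Id2 read 10.65, 9.91 and 9.98 at 2 h and 9.65, 9.51 and 9.26 at 24 h, a difference of -0.71 ± 0.13 (adjusted p = 0.036). Id3 read 8.94, 8.76 and 8.49 at 2 h and 8.46, 8.11 and 7.55 at 24 h, a difference of -0.69 ± 0.14 (adjusted p = 0.046). For both genes the lowest array was that of 20 µM and 24 h. Id1 pointed the same way, at 9.56, 8.98 and 8.91 against 9.18, 8.55 and 7.85, but its groups overlapped and the difference of -0.62 missed the threshold (adjusted p = 0.088). Of the 6 tested Id genes and BMP targets, 2 fell (0.148% of all genes) and 6 had a negative difference, with a median of -0.51. The array labelled 1 µM and 2 h held the highest of the 6 values in 5 of these genes, against 15.6% of all genes tested. A second probe set of Id2 gave -0.86 and a dimmer one 0.02. Id2 was called with scan day as a block (-0.95, adjusted p = 0.0039) and was the gene called with the actin signal as a covariate (-0.93, adjusted p = 0.028). At 22.7 mM only the 1 µM pair was scanned within a day, so the block does not free this call from that pair. Without the 2 h array of that pair, Id2 was not called.

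H1f2, a linker histone, had the smallest p of the genes that fell. It read 11.70, 11.91 and 11.83 at 2 h and 11.07, 11.17 and 11.27 at 24 h, a difference of -0.64 ± 0.10 (adjusted p = 0.020). The spread within each group was small beside the gap, and the untreated array, at 11.79, lay inside the 2 h range. Its other 2 probe sets gave -0.51 and -0.26. Of 7 histone and chromatin genes tested, H1f2 was the 1 called, where 0.417% of all genes were. The remaining 3 that fell were Cxcl12, a chemokine (-0.58 ± 0.11, adjusted p = 0.036), Crybg3 (-0.55 ± 0.11, adjusted p = 0.046) and Foxc1, a forkhead factor (-0.53 ± 0.11, adjusted p = 0.046). Cxcl12 read 8.31, 8.07 and 8.09 at 2 h and 7.73, 7.74 and 7.27 at 24 h. Dimmer probe sets of Cxcl12 and Foxc1 gave -0.10 and -0.17. Among the 11, the untreated array lay inside or above the 2 h range for 10, Nab2 being the exception. With scan day as a block, Egr1, Fos, Id2 and H1f2 kept an adjusted p under 0.05 (0.015, 0.037, 0.0039 and 0.043). Of these, H1f2 alone was also called without the 22.7 mM array labelled 1 µM and 2 h.

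Ogt rose most. It encodes the enzyme that attaches N-acetylglucosamine to serine and threonine of nuclear and cytosolic proteins, and it read 8.27, 8.06 and 8.15 at 2 h and 8.99, 9.15 and 8.91 at 24 h. The difference was 0.86 ± 0.14 (adjusted p = 0.023), a 1.81-fold rise, and the untreated array, at 8.50, lay between the groups. Its other 4 probe sets gave 0.13 to 0.64. Neither Ogt nor any other of the 20 genes that rose was called with scan day as a block.

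A pair of cochaperones rose. Chordc1, which binds Hsp90, read 8.71, 8.92 and 8.28 at 2 h and 9.52, 9.30 and 9.20 at 24 h, a difference of 0.70 ± 0.15 (adjusted p = 0.047). Dnaja1, an Hsp40 protein that hands clients to Hsp70, read 10.47, 10.61 and 10.36 at 2 h and 11.02, 11.01 and 10.91 at 24 h, a difference of 0.50 ± 0.10 (adjusted p = 0.042). In both the groups were apart, and the 24 h arrays also lay above the untreated values of 8.92 and 10.64. A second probe set of Dnaja1, nearly as bright (mean level 10.20), gave 0.08, so the rise rests on 1 of its 2 probe sets. The listed heat shock genes and chaperones were mostly cytosolic, but with mitochondrial Hspd1, Hspe1 and Hspa9 and the ER protein Dnajb9 among them. Of the 25 tested, these 2 cochaperones rose (0.269% of all genes), 0 fell (0.148%) and 18 had a positive difference, with a median of 0.17. The groups were apart in the higher direction for 9 of the 25 (10.9% of all genes) and in the lower for 1 (7.02%). At an unadjusted p under 0.05, 7 were higher (9.09% of all genes) and 3 lower (4.61%), so both directions held more than the share over all genes. Hspa8, the constitutive Hsp70, read 12.31, 12.12 and 12.35 against 12.33, 12.74 and 12.65 (difference 0.31, adjusted p = 0.22), and Fkbp4, an Hsp90 cochaperone, differed by 0.46 (adjusted p = 0.20). The list's median was 0.05 in the 1 µM pair, 0.18 at 10 µM and 0.21 at 20 µM.

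Further genes that rose are described by what each encodes, first those with a role at DNA or chromatin. They were put together after the calls were seen, and the listed DNA replication and histone genes had 0 called higher. Arid4b, a subunit of a histone deacetylase complex, read 7.56, 7.44 and 7.32 at 2 h and 8.05, 8.19 and 8.08 at 24 h (0.67 ± 0.10, adjusted p = 0.020). Parp1, which makes poly(ADP-ribose) at DNA breaks, read 9.11, 9.17 and 9.54 against 9.83, 9.95 and 9.94 (0.64 ± 0.13, adjusted p = 0.047). The 24 h arrays of both genes stood close together and above all 2 h arrays. Topbp1, a scaffold of replication and the checkpoint, differed by 0.55 ± 0.11 (adjusted p = 0.046), and Zmynd8, a reader of histone marks, by 0.64 ± 0.12 (adjusted p = 0.042). Fubp1, which binds single-stranded DNA upstream of Myc, differed by 0.60 ± 0.12 (adjusted p = 0.045), and Nfic, a nuclear factor I protein, by 0.56 ± 0.11 (adjusted p = 0.046). Nfic was the 1 gene of the 20 whose groups overlapped, at 9.83, 9.01 and 9.33 against 10.23, 9.77 and 9.84. Dimmer probe sets of Arid4b, Fubp1 and Nfic gave smaller or opposite differences, from -0.10 to 0.13 for the 4 of Arid4b, -0.12 to 0.34 for the 3 of Fubp1 and -0.28 to 0.29 for the 3 of Nfic.

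The other named genes that rose had varied roles. Mns1, a protein of cilia and sperm flagella, had the lowest SE of all called genes: it read 7.71, 7.67 and 7.68 at 2 h and 8.21, 8.35 and 8.36 at 24 h (0.62 ± 0.09, adjusted p = 0.020). Piga, which starts the synthesis of membrane anchors of the GPI type, read 6.83, 7.16 and 6.92 against 7.46, 7.89 and 7.58 (0.67 ± 0.11, adjusted p = 0.020). In both every 24 h array lay above every 2 h array. Dtx2, a ubiquitin ligase of the Deltex family, differed by 0.68 ± 0.11 (adjusted p = 0.023), and its other probe set by 0.53. Tardbp, the RNA-binding protein TDP-43, differed by 0.65 ± 0.13 (adjusted p = 0.046), with 0.53, 0.36 and -0.06 in 3 further probe sets. Pxk, which carries a PX domain, differed by 0.62 ± 0.11 (adjusted p = 0.036), Rspry1 by 0.60 ± 0.12 (adjusted p = 0.046) and Bcar1, the adhesion adaptor p130Cas, by 0.56 ± 0.11 (adjusted p = 0.046). Dimmer probe sets of Piga and Rspry1 gave 0.01 and 0.13. The rule for named genes left out Nck1, Itsn2, Med27 and Pld1, which complete the 20 and are named after their values were seen, with differences of 0.54, 0.53, 0.50 and 0.49. Among the 20, the untreated array lay between the 2 h and 24 h ranges for 13, inside or below the 2 h range for 6 and inside the 24 h range or above it for 1.

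**Figure D2:**
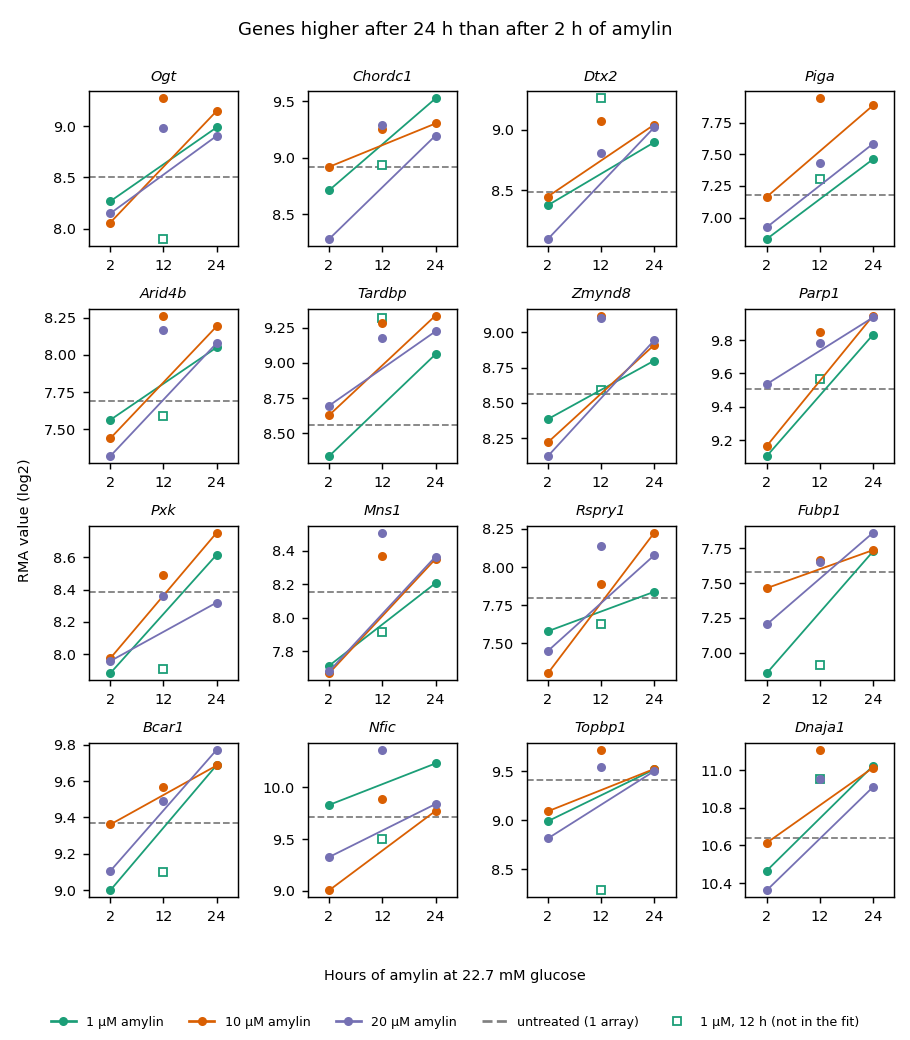
The 16 named genes that rose, 1 panel each: RMA values (log2, y axis) at 2, 12 and 24 h of amylin at 22.7 mM glucose (x axis), coloured by dose, with lines joining the 2 h and 24 h arrays of a dose and a dashed line at the single untreated array. Lines rise for all 3 doses in each panel, and Nfic is the panel in which a 2 h array (1 µM, 9.83) lies above a 24 h array (10 µM, 9.77).

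Genes of the integrated stress response gave no call, yet their differences shared a sign. Of 22 tested, 0 were called and 22 had a negative difference, with a median of -0.29, where 3405 of all 7436 genes were negative. At an unadjusted p under 0.05, 8 were lower, against 4.61% of all genes. Ddit3, the pro-apoptotic factor CHOP, read 9.58, 8.69 and 8.54 at 2 h and 8.63, 8.32 and 8.40 at 24 h, with 8.72 untreated (difference -0.49 ± 0.15, adjusted p = 0.19). Nupr1 read 9.00, 7.58 and 7.36 at 2 h and 7.40, 7.14 and 7.13 at 24 h, with 7.50 untreated (-0.75 ± 0.23, adjusted p = 0.18). Trib3, a pseudokinase target of ATF4 and CHOP, read 8.30, 7.48 and 7.35 against 7.63, 7.41 and 7.31, and its difference was -0.26 ± 0.27. In these 3 genes 1 array, the one labelled 1 µM and 2 h, was far above the other 5. The list showed the same array in front: it held the highest of the 6 values in 20 of 22 genes, against 15.6% of all genes tested. The list's median difference was -0.54 in the 1 µM pair, -0.19 at 10 µM and -0.22 at 20 µM. Without the 1 µM pair it was -0.18, with 19 of 22 negative. Ppp1r15a, the phosphatase subunit that reverses the response, came nearest to a call, at 9.36, 8.86 and 8.97 against 8.66, 8.56 and 8.43 (-0.51 ± 0.12, adjusted p = 0.074), and its groups did not overlap.

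The array labelled 1 µM and 2 h also stood out in Txnip, which read 7.34, 9.02 and 8.80 at 2 h and 8.42, 8.69 and 8.59 at 24 h, with 8.94 untreated. The 1 µM array alone was low at 2 h, and the mean difference of 0.18 ± 0.27 was within the spread (adjusted p = 0.80). Atf4 itself read 11.80 on this array, against 10.97 to 11.35 on the other 5. Without this array, genes called that were not called with it included Phip (1.62), Rcor1 (1.16), Trio (0.92) and Rbfox2 (1.01), named here as the 4 of smallest p among them.

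**Figure D3:**
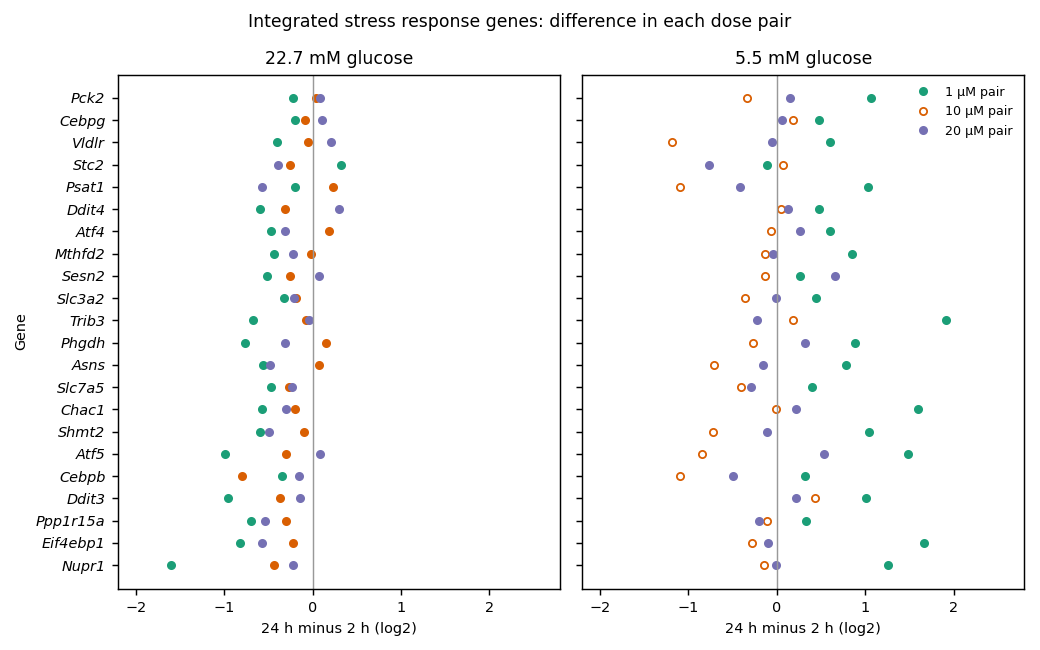
Integrated stress response genes (y axis) with the 24 h minus 2 h difference (log2, x axis) of each dose pair, at 22.7 mM glucose (left) and 5.5 mM glucose (right); open circles mark the pair whose 24 h array was left out of the reported fit. The 1 µM pair (green) lies to the left at 22.7 mM, with a median of -0.54, and to the right at 5.5 mM, with a median of 0.82.

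The 5.5 mM arrays allowed the same contrast at the lower glucose level, in cells labelled as treated alike but for glucose. There 9 genes (0.121%) were called, 1 higher (0.0134%) and 8 lower (0.108%), with 8.96% of genes at an unadjusted p under 0.05. Without both arrays labelled 1 µM and 2 h, 21 were called, and with scan day as a block 0. Without the 5.5 mM array of 1 µM and 24 h, or that of 20 µM and 2 h, 1 was called. In the fit the 24 h value at 5.5 mM came from the arrays of 1 and 20 µM, since that of 10 µM had no scanner description and was left out. Crem was the 1 gene called at both levels: at 5.5 mM it read 9.25, 8.73 and 9.06 at 2 h and 7.62, 7.99 and 7.97 at 24 h (-1.26 ± 0.19, adjusted p = 0.016), and without both those arrays it was called at both levels too (-0.97 and -1.15). With scan day as a block it was called at neither (-0.49 at 22.7 mM, adjusted p = 0.24). Fos (-1.06 ± 0.24), Cirbp (-0.90 ± 0.19), Crybg3 (-0.69 ± 0.13) and H1f2 (-0.55 ± 0.12) had differences of like size at 5.5 mM without passing there (adjusted p = 0.11, 0.078, 0.052 and 0.079). Egr1 and Id2 had smaller ones, at -0.47 ± 0.33 (adjusted p = 0.69) and -0.20 ± 0.15 (adjusted p = 0.72). Without both arrays labelled 1 µM and 2 h, the 5.5 mM difference was -0.54 ± 0.19 for Fos, -0.84 ± 0.21 for Cirbp, -0.57 ± 0.15 for H1f2 and 0.13 ± 0.27 for Egr1. Called at 5.5 mM and not at 22.7 mM were, among others, Rgs2, a brake on G protein signals (-0.81 ± 0.12, against -0.18 at 22.7 mM), Errfi1, an inhibitor of the EGF receptor (-0.77 ± 0.12, against -0.43), and Nr4a1 (-0.92 ± 0.16, against -0.62). Rgs2 and Errfi1 were also called at 5.5 mM without those arrays (-0.80 and -0.81), and Nr4a1 was not (-0.68, adjusted p = 0.12).

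A test of the difference between the glucose levels called 0 of 7436 genes (0%) in limma, with 689 (9.27%) at an unadjusted p under 0.05 and a smallest adjusted p of 0.19. That smallest value was for Mns1, which differed by 0.62 at 22.7 mM and by -0.23 ± 0.11 at 5.5 mM. Id3 fell by 0.69 at 22.7 mM and differed by 0.19 ± 0.16 at 5.5 mM (adjusted p of the difference 0.29). Without both arrays labelled 1 µM and 2 h, 26 genes were called for the difference, among them Mns1 (0.95 ± 0.19, adjusted p = 0.034) and Id3 (-1.18 ± 0.23, adjusted p = 0.032). Phip had the smallest adjusted p there, with a difference of 2.63. Of the 20 genes that rose, 17 had a positive difference at 5.5 mM, where 52.5% of all genes did, with a median of 0.15. Of the 11 that fell, 10 had a negative difference there, where 47.5% of all genes did, with a median of -0.47. Immediate early genes were 18 of 22 negative at 5.5 mM too, with a median of -0.28, and without both arrays labelled 1 µM and 2 h 16 were negative, with a median of -0.13. The Id genes and BMP targets had a median of -0.07 at 5.5 mM.

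**Figure D4:**
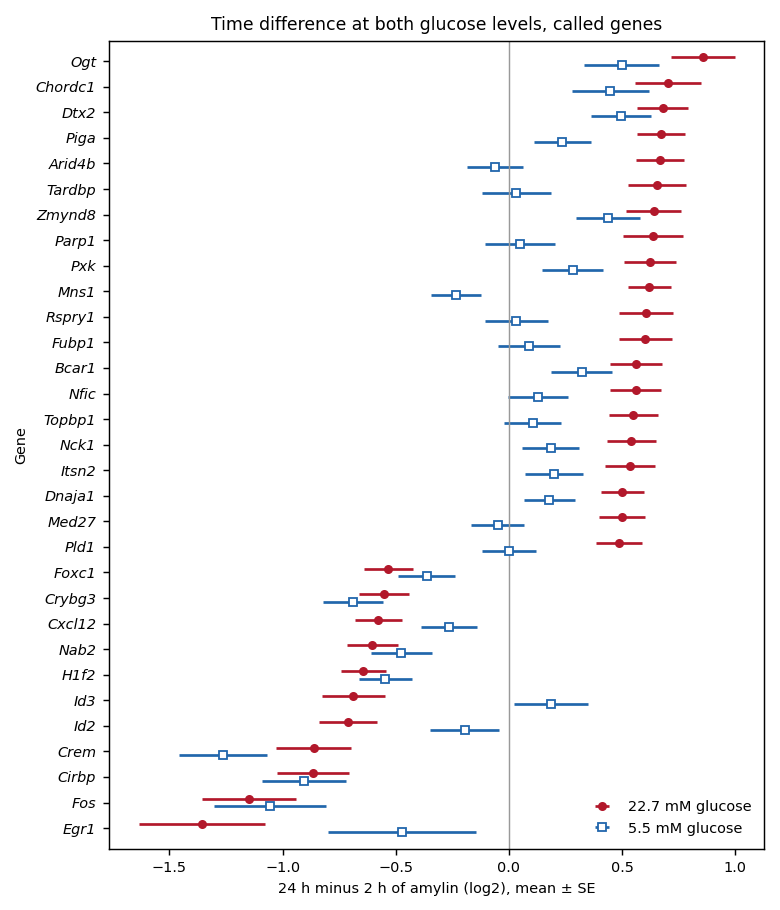
The 31 called genes (y axis) with their 24 h minus 2 h difference (log2, x axis; mean ± SE of the fit) at 22.7 mM glucose (filled circles) and 5.5 mM glucose (open squares). The intervals of Fos, Cirbp, Crem, H1f2 and Crybg3 lie on the same side at both levels, whereas Mns1 and Id3 lie on opposite sides.

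The integrated stress response genes had opposite medians, -0.29 at 22.7 mM and 0.37 at 5.5 mM, where 20 of the 22 were positive. In the test of the difference, 17 of the 22 had an unadjusted p under 0.05 (9.27% of all genes) and 0 were called (smallest adjusted p 0.26). At 5.5 mM the list's median was 0.82 in the 1 µM pair, -0.20 in the 10 µM pair, whose 24 h array was not in the fit, and -0.03 in the 20 µM pair. Ddit3 at 5.5 mM read 8.54, 8.98 and 9.02 at 2 h and 9.56, 9.41 and 9.24 at 24 h, higher at 24 h in each pair. Nupr1 read 7.40, 8.46 and 8.32 at 2 h and 8.66, 8.32 and 8.31 at 24 h, higher at 24 h in the 1 µM pair alone. The lowest array of the 5.5 mM set for both was that of 1 µM and 2 h, which at 22.7 mM was the highest. Txnip mirrored them, with 8.76 on the 5.5 mM array of 1 µM and 2 h against 7.31 to 7.69 on the other 5. Without both arrays, the list's median was -0.18 at 22.7 mM, with 19 of 22 negative, and 0.13 at 5.5 mM, with 17 of 22 positive. For the difference between levels, 4 of 22 then had an unadjusted p under 0.05, against 625 of all 7436 genes, and 0 were called.

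At 12 h, 68 genes (0.914%) differed from 2 h, 60 higher (0.807%) and 8 lower (0.108%), with 15.2% at an unadjusted p under 0.05. Without the array labelled 1 µM and 2 h, 111 were called, but without the 2 h array of 10 or 20 µM 3 and 1 were, and without either 12 h array 0. With scan day as a block 7 were called, and with the 18 treated arrays 0. This comparison shares the 2 h arrays with the main one, and only the 12 h arrays of 10 and 20 µM entered it. The fitted difference at 12 h was -0.97 for Fos, -0.79 for Egr1, -1.18 for Cirbp, -1.08 for Crem and -0.69 for H1f2. It was 0.99 for Ogt, 0.79 for Arid4b, 0.73 for Mns1 and 0.92 for Nfic. Between 24 and 12 h, 0 genes (0%) were called, with 377 (5.07%) at an unadjusted p under 0.05 in limma.

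Genes of the beta cell itself gave no call. Ins2, which encodes insulin, was 14.61 ± 0.09 (SD, n = 3) at 2 h and 14.61 ± 0.05 at 24 h, and Iapp, the gene of the cells' own amylin, was 13.74 ± 0.07 and 13.67 ± 0.21. Of 14 tested beta cell identity genes, 0 were called and 10 had a positive difference, with a median of 0.14. Nkx6-1, a factor of mature beta cells, read 10.35, 10.14 and 10.22 against 10.74, 10.52 and 10.50, with groups apart and an adjusted p of 0.24. Slc2a2, the glucose transporter GLUT2, differed by 0.36 ± 0.13 (adjusted p = 0.23) and Pdx1 by 0.15 ± 0.11 (adjusted p = 0.60). ER chaperones had a median of 0.02, with 12 of 21 positive, and Hspa5 (BiP), their best known member, differed by 0.19 ± 0.14 (adjusted p = 0.59).

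Genes of the cell cycle had mostly positive differences and no call. Of 34 tested DNA replication genes, 25 had a positive difference, 12 were higher at an unadjusted p under 0.05 (9.09% of all genes) and 0 lower (4.61%), with a median of 0.16. Ccne2, a cyclin of S phase entry, came nearest, at 7.02, 7.57 and 7.31 against 7.86, 8.08 and 8.04 (0.69 ± 0.15, adjusted p = 0.055). Of 28 mitosis genes, 24 were positive with a median of 0.15, among them Bub1 (0.39, adjusted p = 0.12). The medians of both lists were positive in each dose pair, from 0.11 to 0.22 for replication and from 0.12 to 0.16 for mitosis. Some lists did not keep a sign: oxidative phosphorylation had medians of 0.16, -0.26 and 0.03 in the 3 pairs and the proteasome 0.16, -0.11 and 0.09. Cytosolic ribosomal protein genes were 28 of 36 negative, with a median of -0.08. Of 6 genes of cholesterol export and LXR targets, 5 were negative, and Abca1, the cholesterol exporter, read 9.01, 8.54 and 8.10 against 7.92, 8.01 and 7.74 (-0.66 ± 0.16, adjusted p = 0.086).

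**Figure D5:**
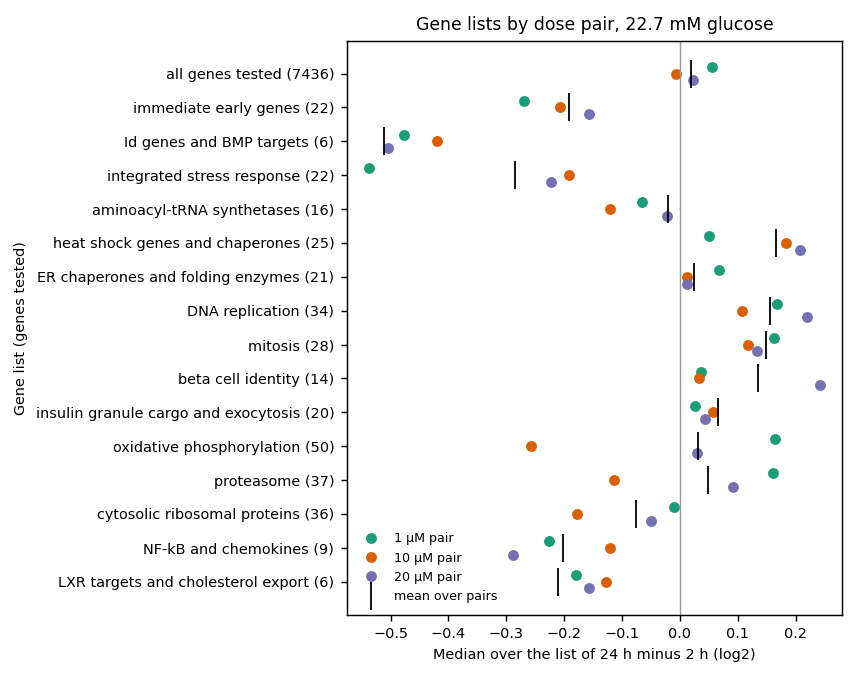
Median 24 h minus 2 h difference (log2, x axis) of 16 sets of genes (y axis, with the number tested) at 22.7 mM glucose, for the 1, 10 and 20 µM pairs (dots) and for the mean over pairs (bars). Immediate early, Id and integrated stress response genes lie below 0 in all 3 pairs, replication and mitosis genes above 0, and oxidative phosphorylation on both sides.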

How the data were processed

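RNA of MIN6 cells was hybridised to 20 Affymetrix mouse arrays. Per the submitters' processing notes, the authors deposited RMA values on the log2 scale (affy 1.12.2, R 2.4.0), and whether all arrays shared 1 RMA run is not given in the sources used here. RMA makes all arrays share a distribution of values, so a change common to most genes would not show. Of 22690 probe sets, 20380 had 1 gene in the platform annotation, 691 several and 1555 none listed. Each of 12393 genes took its probe set of highest mean, and the lowest 40% (below 7.08) were left out. Ins1 was not analysed here.

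The model was limma 3.58.1 (lmFit, eBayes with trend) in R 4.3.3 on the 16 treated arrays that have a scanner description, with glucose and, within it, dose and time, on 6 residual degrees of freedom (prior 10.0). P-values were adjusted over 7436 genes at 0.05. The fit was tested on simulated data with independent noise and no array effects. That test cannot speak to scan day, RNA quality or the weight of single arrays. Scan days (1 to 4) came from the scanner descriptions. The number of arrays limits the precision. The members, the lists, the model and the arrays it uses were chosen with earlier results of these data known. The 2 treated arrays left out were deposited apart from the others and enter no value of the main contrast. Their mean correlations with the other arrays were 0.972 and 0.962, against 0.986 to 0.990 for the rest. Named genes were the 15 highest and 15 lowest called with the same sign in the 3 pairs, the 5 of smallest p per direction called in other contrasts, up to 4 per list by smallest p, and a fixed set (Ins2, Iapp, Pdx1, Ddit3, Trib3, Atf4, Hspa5, Txnip, Fos, Egr1, Ier2, Cirbp, H1f2, Crybg3, Abca1, Chordc1, Hspa8). Alternatives changed the filter, normalization, probe sets, moderation, arrays, dose term and scan day. The actin covariate, the fit without both arrays labelled 1 µM and 2 h, and the leaving out of single arrays at 5.5 mM or 12 h were added after the data were seen.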

Additional observations from a re-analysis of the deposited data

Results flagged for a closer look

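In 3 gene lists the median 24 h minus 2 h difference had one sign in every dose pair at 22.7 mM glucose and the opposite sign in every pair at 5.5 mM, and the difference between the levels was not tested. Some of these signs rest on very small values: in the 1 µM pair at 5.5 mM the median was -0.00085 for cholesterol synthesis and -0.0035 for granule genes. The 10 µM pair at 5.5 mM uses the 24 h array left out of the fit, and the median of all genes in that pair was -0.074. Insulin granule cargo and exocytosis genes had a median of 0.065 at 22.7 mM and -0.025 at 5.5 mM, and of 0.039 at both levels without both arrays labelled 1 µM and 2 h. Cholesterol synthesis genes had a median of 0.083 at 22.7 mM and -0.12 at 5.5 mM, and of -0.028 and -0.13 without both those arrays. NF-kB and chemokine genes had a median of -0.20 at 22.7 mM and 0.016 at 5.5 mM, and of -0.21 and 0.067 without both. The opposite signs were thus absent without both arrays for the first pair of lists and present for the NF-kB and chemokine genes.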

How the results depend on the processing

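The 31 genes called (20 higher, 11 lower) became 18 (11 and 7) with the lowest 60% of genes left out, 1 (1 and 0) with each gene's probe sets averaged, 4 (1 and 3) with the 6 arrays alone, 0 (0 and 0) with the 18 treated arrays, 14 (1 and 13) with scan day as a block and 1 (0 and 1) with the actin signal as a covariate. The 8 treated arrays at 22.7 mM gave 17 lower. With 1 of the 2 h or 24 h arrays of either glucose level or the 12 h arrays of 22.7 mM left out in turn, here and below, the count ran from 0 to 36, with 0 to 32 higher and 0 to 14 lower, and without the array of 1 µM and 2 h it was 36 (32 and 4). Without both arrays labelled 1 µM and 2 h, 33 were higher. The cause of these changes was not tested. At 5.5 mM the 9 calls became 5 (lowest 60% out), 4 (18 arrays), 0 (scan day), 20 (without 1 µM, 2 h at 22.7 mM), 21 (without both) and 22 (actin), and 1 to 20 with 1 array left out. The difference between glucose levels went from 0 to 6 (scan day) and 18 (without the array of 1 µM and 2 h) and 26 (without both), and 0 to 18 with 1 array left out. For 12 minus 2 h the 68 became 40 (lowest 60% out), 42 (centred), 30 (quantile), 0 (18 arrays), 205 (no dose term), 7 (scan day), 111 (without the array of 1 µM and 2 h) and 123 (without both), and 0 to 111 with 1 array left out. For 24 minus 12 h the count stayed at 0 in every alternative run. Of 583 values of the 27 called and named genes under the alternatives, 269 stayed past the threshold, 308 did not, 6 that had no test moved and 0 changed sign. The reported fit pairs arrays by dose, through its dose term. No paired analysis was possible because the labels carry no replicate numbers, apart from this pairing by dose.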

Other observations

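Genes with other roles gave values and no call in the main comparison. NF-kB and chemokine genes were 8 of 9 negative, among them Il1b, an inflammatory cytokine, at 7.58, 7.45 and 7.41 at 2 h and 7.23, 7.16 and 7.21 at 24 h, with groups apart (-0.28 ± 0.10, adjusted p = 0.22). Among amylin receptor and amyloid genes, 7 of 14 were positive. Ide, the insulin-degrading enzyme that also cleaves amylin, differed by 0.27 ± 0.12 (adjusted p = 0.33), and Ramp3, a partner of the calcitonin receptor in amylin receptors, by -0.30 ± 0.11 (adjusted p = 0.25). Bace2, the protease, differed by 0.23 ± 0.13 (adjusted p = 0.47).

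With scan day as a block, the 6 genes called for a difference between glucose levels were Ldha (1.73), Slc1a4 (-1.42), Slc7a3 (-1.87), Nupr1 (-1.66), Angptl6 (-1.55) and Bnip3 (1.25), each given as the 22.7 mM minus the 5.5 mM time difference and named after their values were seen.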
